A study of Mus musculus with 7 samples.

Results

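A set of 9 astrocyte genes was followed in RNA from hippocampal synaptoneurosomes, the pinched-off nerve endings that fractionation of brain tissue yields together with attached postsynaptic parts and fragments of neighbouring cells. They were the glutamate transporter genes Slc1a2 and Slc1a3, the glutamine synthetase gene Glul, the potassium channel gene Kcnj10, the water channel gene Aqp4, the connexin genes Gja1 and Gjb6, the filament gene Gfap and the folate enzyme gene Aldh1l1. Genes were chosen by name, as glutamate uptake, potassium, water and gap junction genes of astrocytes together with astrocyte markers, and 9 of the 22248 genes in the table matched. All 7 libraries came from female wild-type C57Bl/6J mice. A sub-chronic course of AM6545 preceded 4 of them, lettered B, D, E and F, and vehicle the other 3, lettered B, D and E. AM6545 blocks the CB1 cannabinoid receptor and is known for its poor entry into the brain. No transgene, Cre or deletion is named for either group. The labels used here give neither dose, duration, age nor the number of mice behind a library, so p-values measure the spread between libraries, which may be partly technical.

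Fine astrocyte processes wrap many hippocampal synapses. They clear glutamate through the transporters GLT-1 (Slc1a2) and GLAST (Slc1a3), and glutamine synthetase (Glul) turns it into glutamine for return to neurons. The potassium channel Kir4.1 (Kcnj10) and the water channel aquaporin-4 (Aqp4) handle the potassium and water shifts of synaptic activity, and connexin 43 (Gja1) and connexin 30 (Gjb6) join astrocytes into a network. Some of these mRNAs, Slc1a2 among them, are known to be carried into the processes, and a synaptic fraction can therefore hold them.

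Library totals ranged from 19174649 to 25894733 estimated counts. Vehicle replicate B stood apart from the other libraries, with a first principal component score of 41.1 against -21.7 to 11.5, and with 9.83% of its counts on mitochondrially encoded genes against 5.07% to 6.66%. Of the markers listed for excitatory and inhibitory neurons, microglia, oligodendrocytes and their precursors, vessels, and choroid plexus with ependyma, 0 were at 0 in any library. The 8 excitatory neuron markers summed to 4372 to 4619 CPM (counts scaled to a common library size) in AM6545 and 4605 to 5466 in vehicle. The 10 oligodendrocyte markers summed to 17485 to 20630.0 and 17149 to 23438 CPM, the 10 microglia markers to 1016 to 1112 and 1066 to 1355 CPM, and the 10 choroid and ependymal markers to 439 to 2025 and 1614 to 2848 CPM. In such bulk samples, fewer astrocyte fragments and less RNA per fragment cannot be told apart.

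All 9 genes were present in every library, from 486 counts of Kcnj10 in AM6545 replicate B to 27595 counts of Slc1a2 in vehicle replicate B. Scaled per transcript length, as TPM (a length-scaled share of all transcripts) over all 7 libraries, Gfap was highest with 427 ± 59.8 TPM (SD, n = 7). Slc1a3 followed with 364 ± 62.9 TPM and Glul with 269 ± 25.7 TPM (SD, n = 7). Slc1a2 at 130.1 ± 22.6 TPM and Gja1 at 128 ± 21.0 TPM (SD, n = 7) could not be ordered, since Slc1a2 was the higher of the pair in 3 of 7 libraries. Then came Gjb6 (68.2 ± 4.87 TPM), Aldh1l1 (52.1 ± 16.5), Aqp4 (33.6 ± 5.94) and Kcnj10 (12.8 ± 3.79; SD, n = 7 each). The neighbours Gfap and Slc1a3, Slc1a3 and Glul, Gjb6 and Aldh1l1, and Aldh1l1 and Aqp4 each kept this order in 6 of 7 libraries, and the remaining neighbours in 7 of 7. By level Gfap stood at the 98.6th percentile of all genes and Kcnj10 at the 66.6th. The mean transcript of Slc1a2 has 11569 nucleotides, the longest of the 9, so that its rank per length is below its rank in counts. The level of Aqp4 per length is less certain, because 47.3% of its counts fell on transcripts that the annotation used for lengths does not list.

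Of the 9 genes, 0 differed between AM6545 and vehicle at an adjusted p under 0.05 by edgeR's quasi-likelihood test, with adjusted p-values of 0.235 to 0.961. Of 14654 genes tested, 1 passed, which is 0.00682%. At an unadjusted p under 0.05 there were 3 of 9, Slc1a2, Glul and Kcnj10, all lower in AM6545, where 14.6% of all genes tested had such a p, 8.70% lower and 5.86% higher in AM6545. The groups did not overlap for 2 of 9, Slc1a2 and Glul, against 13.8% of all genes tested (7.19% lower in AM6545). With DESeq2 and limma-voom 0 of the 9 passed too. DESeq2 called 1.92% of the 11561 genes to which it gave an adjusted p, and limma-voom 0.805% of 14654. By direction 5 genes were lower and 4 higher in AM6545, with a median log2 fold change of -0.02, beside 0.01 over all genes tested.

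**Figure D1:**
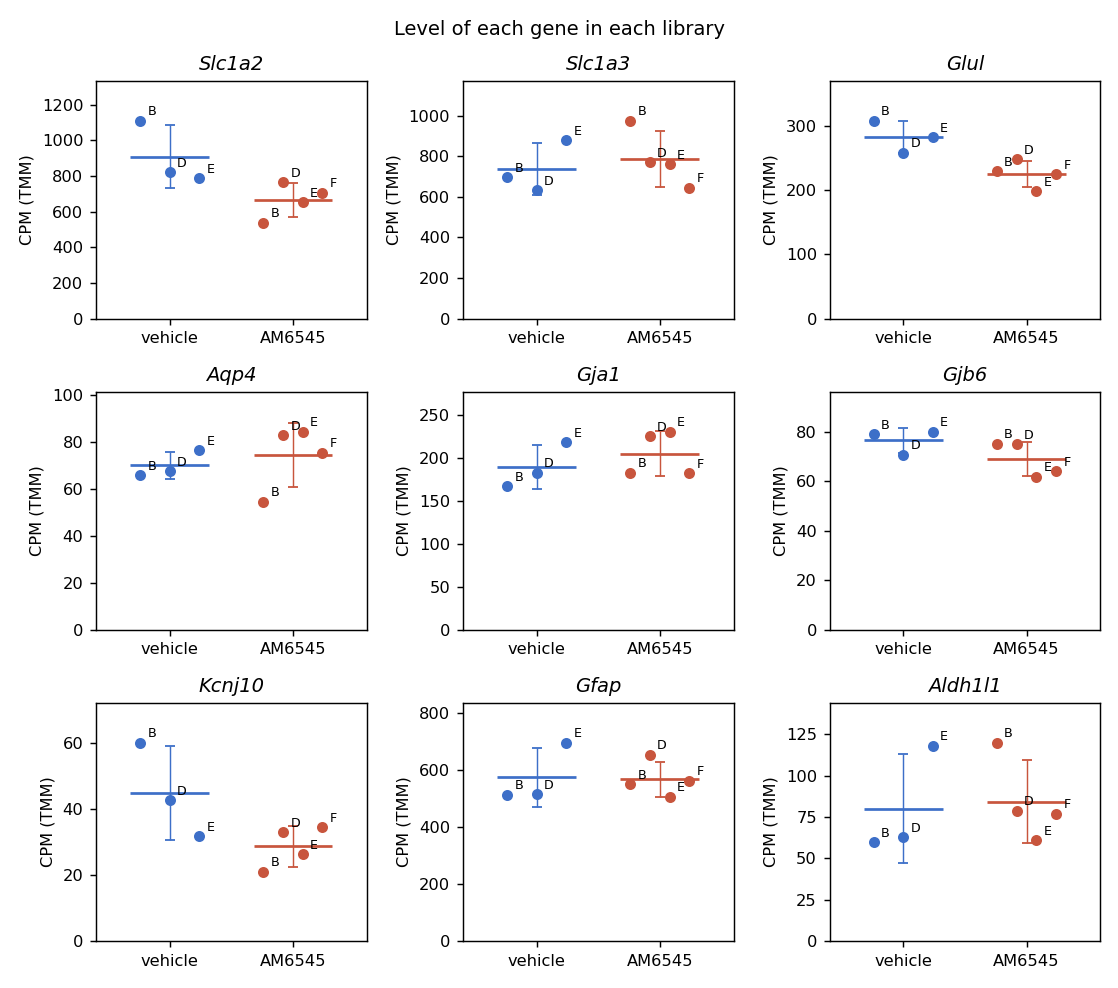
Level of each of the 9 genes in each library, in CPM scaled by TMM, on linear axes from 0; points are libraries with their replicate letters, horizontal lines are group means and vertical bars are SD (n = 3 vehicle, n = 4 AM6545). The 4 AM6545 libraries lie below the 3 vehicle libraries for Slc1a2 (539 to 767 against 789 to 1111 CPM) and Glul (198 to 248 against 258 to 308 CPM), and the groups overlap for the other 7 genes.

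Of the glutamate uptake and conversion genes, Slc1a2 encodes the main glutamate transporter of hippocampal astrocytes. It was at 789 CPM in vehicle replicate E, 823 in D and 1111 in B, and at 539, 653, 707 and 767 CPM in AM6545 replicates B, E, F and D. Every AM6545 library was thus below every vehicle library, by a narrow margin at the nearest pair and with vehicle replicate B far above the rest. The 4 AM6545 libraries averaged 666 ± 96.6 CPM (SD, n = 4) and the 3 vehicle libraries 908 ± 177 CPM (SD, n = 3), a log2 fold change of -0.45 (SE 0.15; edgeR, unadjusted p 0.00980, adjusted p 0.245). Without vehicle replicate B it was -0.27 (edgeR, adjusted p 0.781), in a fit that called 0 of 14763 genes. Without vehicle replicate E it was -0.54 (edgeR, adjusted p 0.0477), in a fit that called 6.38% of all genes. It was -0.26 with limma-voom, which gives libraries unequal weights (adjusted p 0.187). The gene lies at chr2:102658659-102790784 (GRCm38), Glul at chr1:153899944-153909723 and Kcnj10 at chr1:172341210-172374085.

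Slc1a3 encodes GLAST, the transporter that astrocytes already make early in development. It was at 634, 697 and 879 CPM in vehicle replicates D, B and E and at 645, 761, 771 and 976 CPM in AM6545 replicates F, E, D and B. The ranges overlapped, and the highest library of all was AM6545 replicate B, the library with the lowest Slc1a2. The log2 fold change was 0.10 (SE 0.15; edgeR, adjusted p 0.777), and -0.05 after correction for GC content and length.

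Glul encodes the enzyme that condenses glutamate with ammonia. It was at 258, 282 and 308 CPM in vehicle replicates D, E and B and at 198, 225, 229 and 248 CPM in AM6545 replicates E, F, B and D. As for Slc1a2, the groups did not overlap, with replicate D the highest of AM6545 and the lowest of vehicle. The log2 fold change was -0.33 (SE 0.10; edgeR, unadjusted p 0.00831, adjusted p 0.235), from averages of 225 ± 20.6 CPM (SD, n = 4) under AM6545 and 283 ± 24.6 CPM (SD, n = 3) under vehicle. With limma-voom it was -0.19 (adjusted p 0.199). Across the 7 fits that each left out 1 library it stayed between -0.39 and -0.26, with edgeR adjusted p-values of 0.0948 to 0.722. The levels of Slc1a2 and Glul carry some uncertainty, since exons of another gene on the opposite strand overlap 189 and 116 bases of them and the use of strand in counting is not stated. A processed pseudogene, Glns-ps1, also matches 40.3% of Glul at 96.8% identity.

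Of the potassium and water genes, Kcnj10, which encodes the inward rectifier that takes up extracellular potassium, had the lowest level of the 9 genes and the difference of greatest size. It was at 31.8, 42.6 and 60.0 CPM in vehicle replicates E, D and B and at 21.0, 26.2, 33.0 and 34.4 CPM in AM6545 replicates B, E, D and F. Vehicle replicate E lay within the AM6545 range and vehicle replicate B far above it. The log2 fold change was -0.65 (SE 0.22; edgeR, unadjusted p 0.0138, adjusted p 0.256). It was -0.38 without vehicle replicate B (edgeR, adjusted p 0.797), in a fit that called 0 of 14763 genes. Without vehicle replicate E it was -0.84 (edgeR, adjusted p 0.0375), in a fit that called 6.38% of all genes.

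Aqp4, the water channel gene of perivascular and perisynaptic membranes, was at 65.9, 67.6 and 76.5 CPM in vehicle replicates B, D and E. In AM6545 it was at 54.6 CPM in replicate B and at 75.4, 82.8 and 84.3 CPM in replicates F, D and E. AM6545 replicate B was below all vehicle libraries, and replicates D and E were above all of them. The log2 fold change was 0.09 (SE 0.14; edgeR, adjusted p 0.795) and changed sign to -0.11 after correction for GC content and length.

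Of the gap junction genes, Gja1 encodes connexin 43, the more widely used connexin of astrocytes. Vehicle libraries were at 167, 183 and 218 CPM (B, D and E) and AM6545 libraries at 182, 183, 225 and 230.4 CPM (F, B, D and E). The groups overlapped over most of their range, and the log2 fold change was 0.12 (SE 0.13; edgeR, adjusted p 0.677), or -0.07 after the same correction. Gjb6, which encodes the astrocyte connexin 30, was at 70.8, 79.1 and 80.1 CPM in vehicle replicates D, B and E and at 61.9, 64.2, 75.0 and 75.3 CPM in AM6545 replicates E, F, D and B. Its 7 values spanned 1.30-fold from lowest to highest, the narrowest span of the 9 genes. The log2 fold change was -0.15 (SE 0.11; edgeR, adjusted p 0.517).

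Of the filament and folate genes, Gfap encodes the intermediate filament protein that marks astrocytes and increases in reactive ones. It was at 513, 515 and 695 CPM in vehicle replicates B, D and E and at 506, 549, 563 and 653 CPM in AM6545 replicates E, B, F and D. All 4 AM6545 libraries except replicate E lay inside the vehicle range, and the log2 fold change was -0.02 (SE 0.13; edgeR, adjusted p 0.961). Its sign was not stable, at 0.02 with scaling by total counts and 0.15 with limma-voom.

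Aldh1l1 encodes a folate-metabolizing dehydrogenase used as a general astrocyte marker. It was at 59.7, 62.6 and 118 CPM in vehicle replicates B, D and E and at 60.9, 76.9, 78.7 and 119.8 CPM in AM6545 replicates E, F, D and B. In each group 1 library thus stood far above the others, and the group means of 80.2 ± 33.0 (SD, n = 3) and 84.1 ± 25.1 CPM (SD, n = 4) were close together. The log2 fold change was 0.07 (SE 0.28; edgeR, adjusted p 0.921). Without vehicle replicate E it was 0.46 and without AM6545 replicate B -0.15, neither past the threshold. Its level is uncertain because an antisense gene overlaps 499 of its exon bases.

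**Figure D2:**
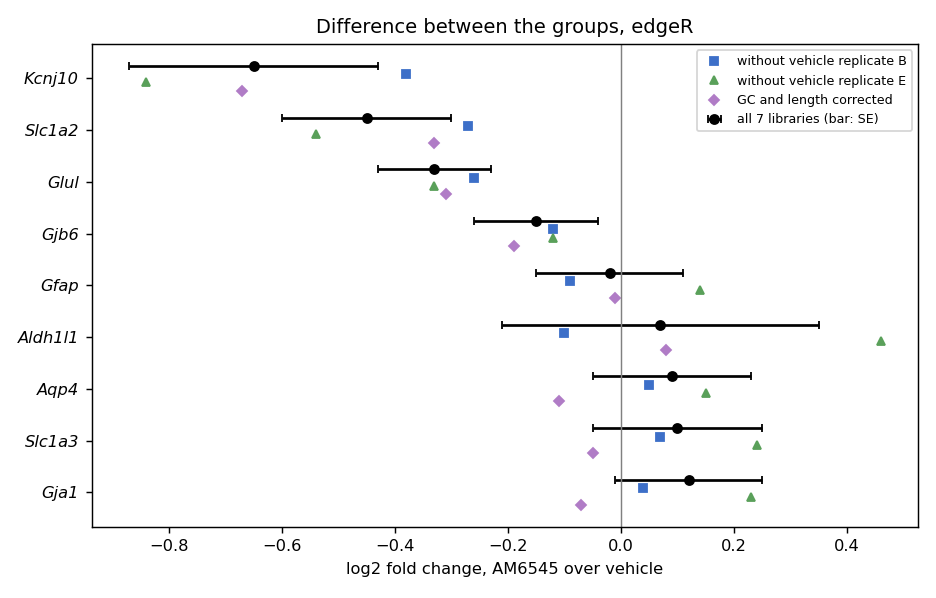
Log2 fold change of each gene, AM6545 over vehicle, by edgeR; black points with bars are the values from all 7 libraries with their SE, and coloured points the values without vehicle replicate B, without vehicle replicate E and after correction for GC content and length. Slc1a2, Glul, Gjb6 and Kcnj10 lie below 0 under all 4 settings shown, and the other 5 genes have points on both sides of 0.

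The 9 genes did not follow 1 profile over the libraries. Relative to its own mean over 7 libraries, on a log2 scale, Kcnj10 was at 0.82 and Slc1a2 at 0.56 in vehicle replicate B, where Aldh1l1 was at -0.40, Gja1 at -0.24 and Gfap at -0.14. In AM6545 replicate B, Kcnj10 was at -0.68, Slc1a2 at -0.48 and Aqp4 at -0.39, whereas Aldh1l1 was at 0.59 and Slc1a3 at 0.36. Vehicle replicate E was the other library with high Aldh1l1 (0.58), and there Gfap was at 0.29 and Slc1a3 at 0.21. The summed level of the 9 genes was steadier than its parts, at 2572 to 2933 CPM in AM6545 and 2657 to 3169 CPM in vehicle. Within groups, the SD of log2 CPM was 0.466 for Aldh1l1 and 0.380 for Kcnj10, at the 99.4th and 98.1st percentiles of 9627 genes with a mean of at least 10 CPM, whose median was 0.148. It was 0.129 for Gjb6 and 0.131 for Glul, at the 37.7th and 38.7th percentiles, and 0.190 to 0.244 for the remaining 5 genes. How the position of vehicle replicate B and its mitochondrial share bear on Slc1a2 and Kcnj10 was not tested beyond the values given without that library.

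**Figure D3:**
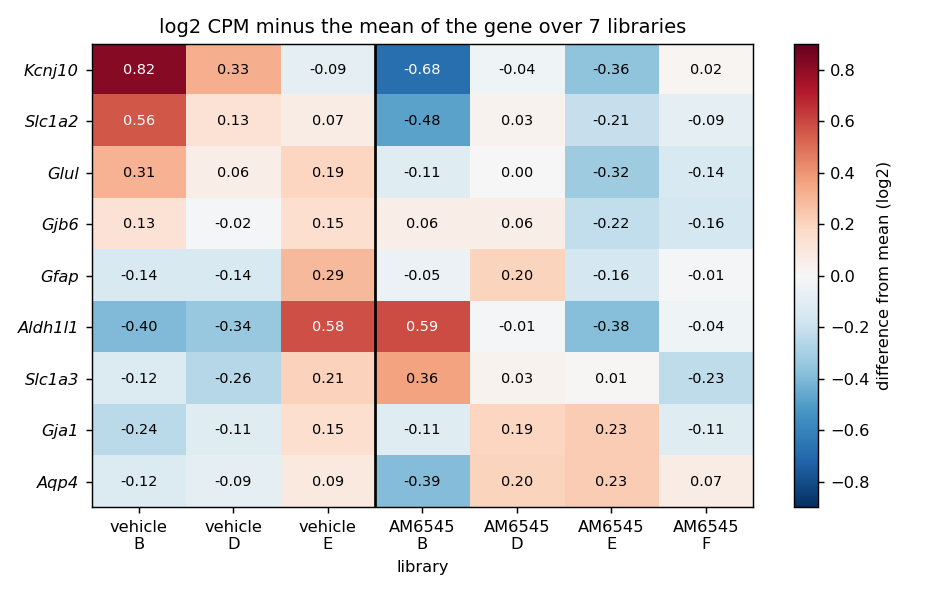
Each cell gives log2 CPM minus the mean of that gene over the 7 libraries, with genes in rows and libraries in columns, red above and blue below the mean; the black line separates vehicle (left) from AM6545 (right). Kcnj10 and Slc1a2 are highest in vehicle replicate B (0.82 and 0.56) and lowest in AM6545 replicate B (-0.68 and -0.48), while Aldh1l1 is highest in AM6545 replicate B and vehicle replicate E (0.59 and 0.58).

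Ratios within a library do not depend on scaling between libraries. The ratio of Slc1a2 to Slc1a3 counts was 0.897, 1.30 and 1.59 in vehicle replicates E, D and B and 0.553, 0.858, 0.994 and 1.10 in AM6545 replicates B, E, D and F. The groups overlapped, and the mean log2 ratio was lower in AM6545 by 0.54 (difference -0.54; two-sided exact permutation p 0.171, 0.229 adjusted over 4 ratios). The ratio of Kcnj10 to Aqp4 was 0.312 to 0.457 in AM6545 and 0.416, 0.630 and 0.909 in vehicle replicates E, D and B, a log2 difference of -0.69 (exact permutation p 0.114, adjusted 0.229). For Gfap to Slc1a2 the log2 difference was 0.43 and for Gja1 to Gjb6 0.27, each with an exact permutation p of 0.229 before and after adjustment. The smallest p that the 35 splits of 7 libraries into 4 and 3 allow in a single direction is 0.0286. The two-sided p used here counts both directions, so with these group sizes no difference could bring it under 0.05. Without vehicle replicate B the log2 differences of the first pair of ratios were -0.35 and -0.41, and that of Gfap to Slc1a2 was 0.20.

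The transcript table divides Gfap between transcripts that end in different coding exons. Gfap-201 has 9 exons and encodes the filament-forming main form of 430 codons, and Gfap-202 has 8 exons and 428 codons and ends in the alternative exon known from the δ form, which is associated with neural stem cells and assembles poorly on its own. The last coding bases of Gfap-202 are shown because this end tells it apart from the main form. The sequence is on the minus strand of GRCm38, from GENCODE release M21, at chr11:102891396-102891930. The final 20 bases of the last shared exon are in lower case, and the 125 coding bases that only Gfap-202 has of the pair, stop codon included, are in capitals.
Gfap-202: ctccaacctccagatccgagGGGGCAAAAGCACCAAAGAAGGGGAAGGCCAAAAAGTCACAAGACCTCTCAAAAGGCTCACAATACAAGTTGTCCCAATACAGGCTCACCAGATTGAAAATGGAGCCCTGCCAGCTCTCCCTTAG

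Gfap-202 took 14.5%, 15.7%, 15.7% and 17.4% of Gfap counts in AM6545 replicates B, D, F and E, and 15.8%, 16.4% and 17.4% in vehicle replicates B, E and D. The share of the alternative end was thus nearly the same in all libraries, averaging 15.8% ± 1.21 (SD, n = 4) under AM6545 and 16.5% ± 0.793 (SD, n = 3) under vehicle. Gfap-202 itself had a log2 fold change of -0.07 (SE 0.14; edgeR, adjusted p 0.916) and Gfap-201 one of 0.00 (SE 0.14; edgeR, adjusted p 0.998).

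**Figure D4:**
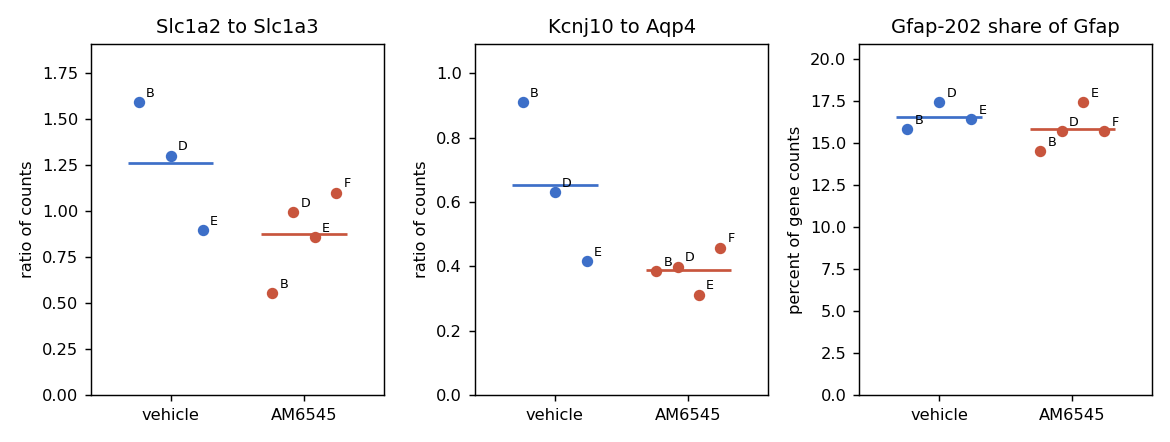
Ratio of Slc1a2 to Slc1a3 counts (left), ratio of Kcnj10 to Aqp4 counts (middle) and percent of Gfap counts on Gfap-202 (right) in each library, with group means as lines and replicate letters beside the points. Both ratios are highest in vehicle replicate B (1.59 and 0.909), whereas the Gfap-202 share stays between 14.5% and 17.4% in all 7 libraries.

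Of 22 transcripts of the 9 genes that were tested, 0 passed an adjusted p under 0.05 by edgeR, where 0.0177% of all transcripts tested did. At an unadjusted p under 0.05 there were 4, all lower in AM6545, beside 8.39% of all transcripts tested in either direction. The 4 were Glul-202, Glul-201, Slc1a2-202 and Kcnj10-201, so that each belongs to a gene already described and is not a separate observation. The share of all transcripts that were lower at such a p was not counted. A single transcript held nearly all counts of Slc1a2 (Slc1a2-202, 99.7% in both groups), Slc1a3 (Slc1a3-201, 99.7%) and Gja1 (Gja1-201, 99.8% and 99.5%), and Kcnj10 was measured by 1 transcript, Kcnj10-201. Glul counts were divided among a transcript of 2792 nucleotides (Glul-201) and shorter ones of 681 (Glul-202) and 379 nucleotides (Glul-203). Glul-202 took 26.1%, 27.5%, 27.8% and 28.3% of Glul in AM6545 replicates D, E, B and F and 30.7%, 31.5% and 32.8% in vehicle replicates E, D and B, without overlap. Its log2 fold change was -0.53 (SE 0.10; edgeR, unadjusted p 0.00130, adjusted p 0.447). DESeq2 gave -0.53 with an adjusted p of 0.00195, and Glul-202 was the only transcript of the 9 genes that passed with it. DESeq2 called 1.02% of the 37579 transcripts to which it gave an adjusted p. Glul-203 took 3.67% in vehicle replicate B, 12.3% and 14.3% in the other vehicle libraries and 15.8% to 20.8% in AM6545, so that the shares did not overlap. Its CPM did overlap, and the log2 fold change of 0.59 had an SE of 0.40 (edgeR, adjusted p 0.729). These shares rest on how reads were divided among overlapping transcripts and carry an error that the counts do not show. Shares within a gene depend on each other, so those of Glul-202 and Glul-203 are not separate observations. How often shares fail to overlap over all transcripts was not counted.

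Other genes of the same processes were read from the same fit. Of 15 further genes of the glutamate-glutamine cycle, 0 passed the threshold, 7 were higher and 8 lower, with a median log2 fold change of -0.04. Among them were the neuronal glutamate transporter genes Slc1a6 at -0.30 and Slc1a1 at 0.21 (SE 0.16 and 0.13; edgeR adjusted p 0.396 and 0.450). Without vehicle replicate B these were -0.11 and 0.12, with limma-voom -0.09 and 0.20, and after the GC content and length correction -0.22 and 0.08.

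Of 12 other connexin and pannexin genes, 9 were tested and 0 passed, 3 being higher and 6 lower (median -0.07). Panx2, a pannexin channel gene of neurons, was at 30.7 to 35.6 CPM in AM6545 and at 36.5, 44.0 and 56.2 CPM in vehicle replicates E, D and B. The groups did not overlap, beside 13.8% of all genes tested (7.19% lower in AM6545). The log2 fold change was -0.51 (SE 0.14, edgeR adjusted p 0.199). Panx2 passed with DESeq2 (-0.51, adjusted p 0.0452) and limma-voom (-0.47, adjusted p 0.0495), which called 1.92% and 0.805% of genes with an adjusted p. It also passed without vehicle replicate E (-0.65, edgeR adjusted p 0.0239), in a fit that called 6.38% of all genes. Without vehicle replicate B it was at -0.33 (edgeR adjusted p 0.654), in a fit that called 0 of 14763 genes. It did not pass after the GC content and length correction (-0.39, edgeR adjusted p 0.729) or with the replicate letter as a block (-0.54, edgeR adjusted p 0.595). Gja4, a vessel connexin, was at -0.36 (SE 0.23; edgeR adjusted p 0.472), but at -0.17 without vehicle replicate B, -0.19 after the GC content and length correction and -0.04 with limma-voom.

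Of 22 further genes of potassium, bicarbonate and water transport and of the dystrophin complex that anchors aquaporin-4, 0 passed, 15 being lower and 7 higher (median -0.04). Kcnj16, whose product pairs with Kir4.1, was at 0.29 (SE 0.17) and the chloride channel gene Clcn2 at -0.15 (SE 0.10; edgeR adjusted p 0.453 and 0.482). After the GC content and length correction Kcnj16 was at 0.07, and without AM6545 replicate D at 0.15; Clcn2 was at -0.10 without vehicle replicate E. Of 18 other filament and reactive astrocyte genes, 15 were tested and 0 passed, 9 being higher and 6 lower (median 0.15). Those with the smallest p were the immunoproteasome gene Psmb8 (-0.47, SE 0.15), S100a10 (-0.34, SE 0.16) and Gbp2 (0.46, SE 0.28), with edgeR adjusted p-values of 0.236, 0.343 and 0.452. The GC content and length correction gave -0.25, 0.01 and 0.33, limma-voom gave -0.23, -0.16 and 0.60, and S100a10 was at -0.12 without vehicle replicate B.

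Of 29 other astrocyte marker genes, 0 passed and 22 were lower in AM6545 (75.9%, beside 48.6% of all genes tested), with a median of -0.08. Other cell types had like shares of lower markers, at 75.0% for excitatory neurons, 62.5% for inhibitory neurons, 70.0% for oligodendrocytes, 66.7% for their precursors and 80.0% each for microglia and for choroid plexus with ependyma, with 30.8% for vessels. At an unadjusted p under 0.05 there were 6 of the 29, all lower, beside 14.6% of all genes tested (8.70% lower). The groups did not overlap for 2 of the 29, Clu and Grin2c, beside 13.8% of all genes tested (7.19% lower). Apoe, the lipid carrier gene, was at 3529.8 to 4277 CPM in AM6545 and at 4192, 5179.8 and 5806 CPM in vehicle replicates D, E and B, with a log2 fold change of -0.40 (SE 0.13; edgeR adjusted p 0.245). It was -0.07 after the GC content and length correction, and 0.00 when the replicate letter was added as a block to that correction. With the block alone it was -0.35, and with limma-voom -0.17. Clu, the clusterin gene, was at 1685 to 2061 and 2189 to 2453 CPM (-0.28, SE 0.11; edgeR adjusted p 0.285; -0.18 after that correction), and the amino acid exchanger gene Slc7a10 at -0.36 (SE 0.14; edgeR adjusted p 0.292). Apoe and Clu are also made by microglia or neurons, and of 10 microglia markers 8 were lower in AM6545 (median -0.33), 6 of them at an unadjusted p under 0.05 (8.70% of all genes tested were lower at such a p) and 0 at an adjusted one. The part of those cells in the values was not tested. Of 25 genes for astrocyte signals to synapses and for the motility of fine processes, 0 passed, 15 being lower and 10 higher (median -0.04). Chrdl1, an astrocyte-secreted BMP antagonist, was at 3.20 to 5.17 CPM in AM6545 and 2.16 to 2.86 CPM in vehicle (0.65, SE 0.21; edgeR adjusted p 0.235). The adhesion gene Nlgn2 was at 24.1 to 26.7 CPM in AM6545 and at 23.6, 39.6 and 71.9 CPM in vehicle replicates E, D and B (-0.84, SE 0.30; edgeR adjusted p 0.269), or -0.33 without vehicle replicate B, and the matrix gene Sparc was at -0.27 (SE 0.15; edgeR adjusted p 0.412), or -0.06 without vehicle replicate B and -0.04 with limma-voom. Chrdl1 was at 0.43 after the GC content and length correction.

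**Figure D5:**
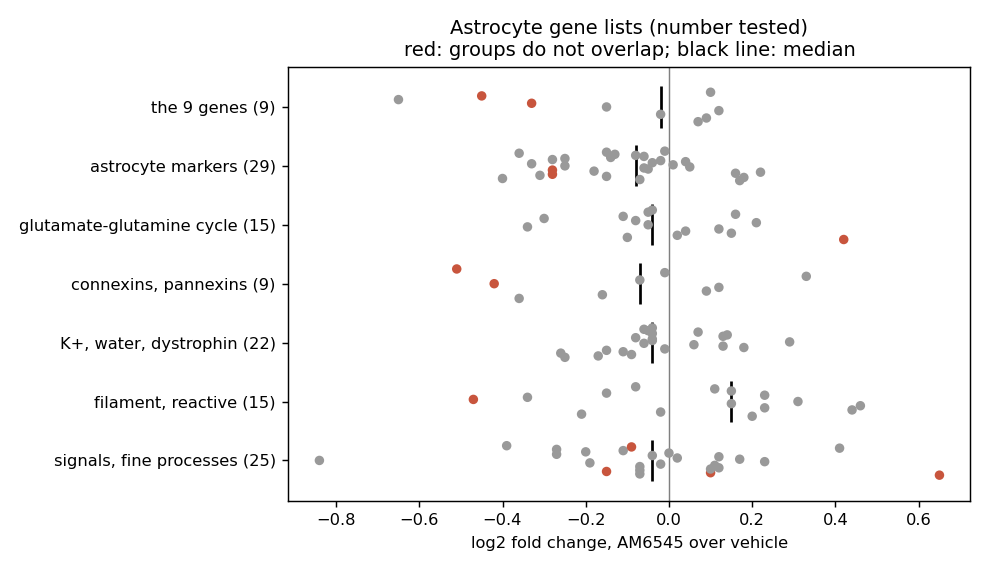
Log2 fold change, AM6545 over vehicle, of every tested gene in the 7 astrocyte lists, with 1 point per gene, red where the groups do not overlap, and a black line at the median of each list. The medians lie between -0.08 and 0.15, and single genes between -0.84 and 0.65.

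The genes whose profile over the 7 libraries was nearest to the mean profile of the 9 genes were Tsr3, Ddah1, Nudc, Lgi4 and Necap2. Their root mean square difference from it was 0.0287 to 0.0402 on the log2 scale, over genes with a mean of at least 10 CPM. That of the 9 genes themselves was 0.0772 for Gjb6 to 0.408 for Kcnj10, so that the mean profile described Kcnj10 and Aldh1l1 (0.380) least well. The mean profile itself was nearly flat, from -0.13 in AM6545 replicate E to 0.18 in vehicle replicate E.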

How the data were processed

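The deposited values are the authors' estimated counts per gene and per transcript, unscaled, and 83.5% of the gene values above 0 were not whole. Salmon 1.5.2 and build mm10 are named in the submitters' processing notes. Annotation release, use of strand and filters are not given in the sources used here. Names, lengths, GC content and sequences came from GENCODE M21 (GRCm38), which holds 22148 of 22248 gene and 101527 of 102392 transcript identifiers, versions ignored.

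Counts were rounded, and AM6545 was compared with vehicle over all genes or transcripts with edgeR 4.0.16 (quasi-likelihood, robust, TMM, filterByExpr, no covariates) in R 4.3.3, with Benjamini-Hochberg adjustment and a threshold of 0.05. The SE is |log2 fold change| over the root of F. Log2 ratios (pseudocount 0.5) were compared by exact permutation (scipy 1.17.1). Alternatives were DESeq2 1.42.0, limma-voom 3.58.1 with quality weights, other scalings and filters, a GC content and length correction (lowess, span 0.3), the replicate letter as a block, and leaving out each library. The code was tested on simulated data.

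The 9 genes, the lists and the alternatives were chosen with earlier results of these data known. Named by rule are the 9 genes, the 3 genes of smallest p in each of 6 other lists, transcripts with at least 10% of the counts of their gene, and the 5 nearest profiles. Some items that the rule names are not reported here. Grin2c and Msn were named after their values were seen. Dio2 was listed but not matched.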

Additional observations from a re-analysis of the deposited data

Results flagged for a closer look

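Of 43 values compared over the 4 AM6545 libraries, 2 had a single library far from its group, where chance gives 2.15. For Panx2 this was replicate F at 35.6 CPM, with 30.7 to 30.9 CPM in the remaining replicates and 36.5 to 56.2 CPM under vehicle. For Sparc it was replicate D at 779 CPM, with 602 to 632 CPM in the remaining replicates and 684 to 1002 CPM under vehicle. The values compared included the 9 astrocyte genes, their named transcripts and the 4 ratios, and 0 of these were flagged. That holds also for Aldh1l1, at 119.8 CPM in AM6545 replicate B with 60.9 to 78.7 CPM in the remaining replicates.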

How the results depend on the processing

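Among the 9 genes, 0 passed under each of the 10 alternatives that kept all libraries, and the count was 0 to 2 over the fits that left out 1 library, with Slc1a2 and Kcnj10 passing without vehicle replicate E, a fit that called 6.38% of all genes tested; the cause was not tested. Slc1a2, Glul, Kcnj10 and Gjb6 were lower in AM6545 under all 17 alternatives, with Gjb6 at only -0.04 with limma-voom (adjusted p 0.794). The alternatives refit the same libraries, so their signs are not separate observations. After the GC content and length correction the log2 fold change was -0.05 for Slc1a3, -0.11 for Aqp4, -0.07 for Gja1 and 0.01 for S100a10, and with the replicate block added it was -0.15 for Aqp4 and -0.03 for Gja1. Gfap was at 0.02 with total counts and 0.15 with limma-voom. Leaving out 1 library gave -0.02 to 0.24 for Slc1a3, -0.09 to 0.14 for Gfap, -0.15 to 0.46 for Aldh1l1, -0.01 to 0.23 for Slc1a3-201, -0.18 to 0.16 for Aqp4-201, -0.17 to 0.06 for Gfap-202 and -0.14 to 0.46 for Aldh1l1-201. Other lists went from 0 to 1 gene for the glutamate-glutamine cycle (limma-voom 1; leaving out 1 library 0 to 1), to 2 for connexins and pannexins (DESeq2 and limma-voom 2; leaving out 1 library 0 to 1) and to 0 to 2 for signals and fine processes when 1 library was left out (Msn and Nlgn2 without vehicle replicate E, in the same fit that called 6.38% of all genes). DESeq2 called 1 transcript of the 9 genes, Glul-202, and 1.02% of transcripts with an adjusted p. Of genes with an adjusted p, DESeq2 called 1.92% and limma-voom 0.805%.

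With the replicate letter as a block, 0 of the 9 genes passed and the log2 fold change was -0.47 for Slc1a2, -0.33 for Glul and -0.72 for Kcnj10 (edgeR adjusted p 0.595 to 0.609). No vehicle library carries the letter F, so AM6545 replicate F adds nothing to these differences. The letters were not shown to pair the libraries: deviations of same-lettered libraries correlated across genes at -0.255, -0.13 and -0.18. The paired log2 differences of the ratios were -0.66, 0.29, 0.47 and -0.77 in the order Slc1a2 to Slc1a3, Gja1 to Gjb6, Gfap to Slc1a2 and Kcnj10 to Aqp4.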
